A study of Mus musculus with 8 samples.

Results

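Proneural and intermediate progenitor genes are followed here in cultured embryonic neural stem cells of the mouse. A list of 9 genes (Neurog1, Neurog2, Neurod1, Neurod4, Insm1, Eomes, Btg2, Gadd45g and Myt1) was matched by Ensembl identifier, and 8 of them were found among 15538 genes. Neurog1 had no row and is not analysed here. Bulk RNA sequencing covered 8 libraries of primary neurospheres, which are floating clusters of neural stem cells, from embryonic brain. The labels give 4 of them as wild type and the other 4 as Phf23-/-, homozygous for loss of the PHD-finger chromatin protein Phf23. The labels give no strain, embryonic day, brain region, sex or allele, and do not say whether replicates were separate animals or cultures. The spread between libraries, which stands behind the p-values of the fits to all 8, may thus be a technical one.

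In the embryonic forebrain, proneural factors of the basic helix-loop-helix (bHLH) family push a dividing radial glial cell towards a neuronal fate. They pair with E proteins, bind E-box sequences and switch on Delta ligands and later factors, while Hes and Id proteins hold them back. In the dorsal forebrain, cells on this path often pass through an intermediate progenitor stage marked by the T-box factor Eomes before they become neurons. The submitters compared the genotypes to ask how differentiation comes to be blocked when Phf23 is missing.

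The whole series sets limits on what follows. Recovered depth was 15647304 to 18241215 reads in the wild-type libraries and 18099114 to 19462516 in those labelled knockout. Phf23 itself ranged from 720 to 919 normalised reads over the wild-type libraries and from 1361 to 1607 over those labelled knockout, which goes against the label, so directions are stated between groups of libraries as the labels name them. A gene total does not show whether part of the gene was deleted. Long transcripts were relatively low in the libraries labelled knockout. The slope of a library with transcript length, in log2 units per doubling of length, was 0.06 to 0.26 in the wild type and -0.31 to 0.04 in the libraries labelled knockout (two-sided exact permutation p = 0.0286, the smallest that 4 against 4 libraries allow). For the called genes among those followed here, and for many other called genes, values with this length trend removed stand beside the results. All 8 neural stem cell and radial glia markers were expressed, with means from 240 (Prom1) to 86985 (Vim) normalised reads, and Fabp7 (log2 fold change 0.62, limma-trend FDR = 0.00923) and Msi1 (0.45, FDR = 0.0133) were called higher. With the trend in length and GC content subtracted, Fabp7 (0.32, FDR = 0.00445), Msi1 (0.26, FDR = 0.0414) and Vim (0.36, FDR = 0.0208) were called. With the slope as a covariate, neither Fabp7 (0.17, FDR = 0.657) nor Msi1 (0.55, FDR = 0.0979) was. The 6 microglial markers sought were not analysed here.

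Of the 8 genes measured, 3 rose and 1 fell, where 29.6% of all genes were called in either direction. Higher in the libraries labelled knockout were Neurod1, Btg2 and Gadd45g, against 14.8% of all genes called higher. Myt1 was lower, against 14.8% of all genes called lower. Insm1 did not pass the test, nor did Neurog2, Neurod4 and Eomes, which had few or no reads. The threshold for a call was an FDR (false discovery rate) under 0.05 in limma-trend, adjusted over all 15538 genes. Fold changes given as log2 were computed on log2(value + 1) and carry ± SE. The median log2 fold change of the 8 genes was 0.67, beside 0.00055 over all genes. It was 0.31 with the trend in length and GC content subtracted, 0.96 with the slope covariate and 0.87 in replicates 3 and 4 alone. These medians include Neurod4 and Eomes, with few reads, and Neurog2, which was measured only through the group where it is higher. They are not support for a shift of the set. For 4 of the 8 the genotypes did not overlap, and that was so for 27.7% of all genes (13.6% higher in the libraries labelled knockout and 14.2% lower).

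To show what lies just upstream of the genes that were called, the 250 bases before the transcription start of each are printed 5′ to 3′ on the gene's own strand, from RefSeq on GRCm38.p6. Capitals mark E-boxes (CANNTG, where N is any base), the class of site that proneural factors bind. The windows are chr2:79456637-79456886 (minus strand) for Neurod1, chr13:51846425-51846674 (plus strand) for Gadd45g, chr1:134079156-134079405 (minus strand) for Btg2 and chr2:181763082-181763331 (plus strand) for Myt1.
Neurod1: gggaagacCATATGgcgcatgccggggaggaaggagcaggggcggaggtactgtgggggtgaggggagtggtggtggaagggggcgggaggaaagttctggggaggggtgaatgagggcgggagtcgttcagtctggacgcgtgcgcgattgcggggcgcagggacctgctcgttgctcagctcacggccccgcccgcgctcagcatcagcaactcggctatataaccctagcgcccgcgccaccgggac
Gadd45g: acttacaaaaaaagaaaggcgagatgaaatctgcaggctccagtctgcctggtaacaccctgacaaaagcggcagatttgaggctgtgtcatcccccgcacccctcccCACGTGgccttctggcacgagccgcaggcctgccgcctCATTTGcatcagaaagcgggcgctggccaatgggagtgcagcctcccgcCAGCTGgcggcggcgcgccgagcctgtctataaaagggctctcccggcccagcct
Btg2: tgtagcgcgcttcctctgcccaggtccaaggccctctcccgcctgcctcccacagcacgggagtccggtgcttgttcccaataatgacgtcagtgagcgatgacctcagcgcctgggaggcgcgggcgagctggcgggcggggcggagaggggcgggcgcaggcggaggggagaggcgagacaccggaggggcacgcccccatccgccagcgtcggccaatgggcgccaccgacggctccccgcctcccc
Myt1: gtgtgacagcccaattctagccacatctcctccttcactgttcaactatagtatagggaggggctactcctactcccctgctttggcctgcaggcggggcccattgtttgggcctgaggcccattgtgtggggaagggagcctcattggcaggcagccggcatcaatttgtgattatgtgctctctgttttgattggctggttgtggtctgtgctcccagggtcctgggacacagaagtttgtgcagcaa

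The Gadd45g window held 3 E-boxes: CACGTG began 142 bases before the start, CATTTG began 104 bases before it and CAGCTG began 55 bases before it. Neurod1 had a single E-box, CATATG, 242 bases before the start, and the Btg2 and Myt1 windows had 0. Among 32851 promoter windows of the same length, 66.2% held at least 1 E-box and 12.2% held at least 3. A window was found for 8 of the 9 listed genes, Insm1 being without one, and those of Neurog1, Neurog2, Neurod4 and Eomes also had 0 E-boxes. The E-box form CAGATG, searched on both strands, was in none of the 8 windows and in 14.4% of all windows. CACNAG, the N-box bound by Hes-type repressors, was found on either strand in the windows of Neurod4 (2 matches), Eomes (2) and Gadd45g (1), and in 36.7% of all. CACGNG, another Hes site, matched once each in Neurog1, Neurod1 and Btg2, and at 2 places in Gadd45g, where CACGTG is also an E-box and CACGAG is also the N-box. Of all windows, 23.5% held CACGNG. Myt1 has 3 starts in the RefSeq table, and only the one at the 5′ end of the gene is printed. A match of letters is not a bound site.

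Levels per transcript length set the genes apart before any comparison of genotypes. In normalised reads per kb of the longest annotated transcript, the wild-type means were 654 ± 106 for Gadd45g, 372 ± 17.9 for Btg2, 300 ± 45.2 for Myt1 and 166 ± 31.2 for Insm1 (SD, n = 4 each). Neurod1 stood at 24.1 ± 1.95, Neurod4 at 1.51 ± 0.490, Eomes at 0.907 ± 0.225 and Neurog2 at 0. In that order, the wild-type libraries of Btg2 and Myt1 overlapped, as did those of Neurod4 and Eomes, and the other neighbours did not. Gadd45g lay above 88.0% of all genes with an annotated length, Btg2 above 77.5% and Eomes above 4.11%. The order changed in the libraries labelled knockout, where Insm1, at 184 ± 7.50 per kb, stood above Myt1, at 115 ± 29.5, without overlap.

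**Figure D1:**
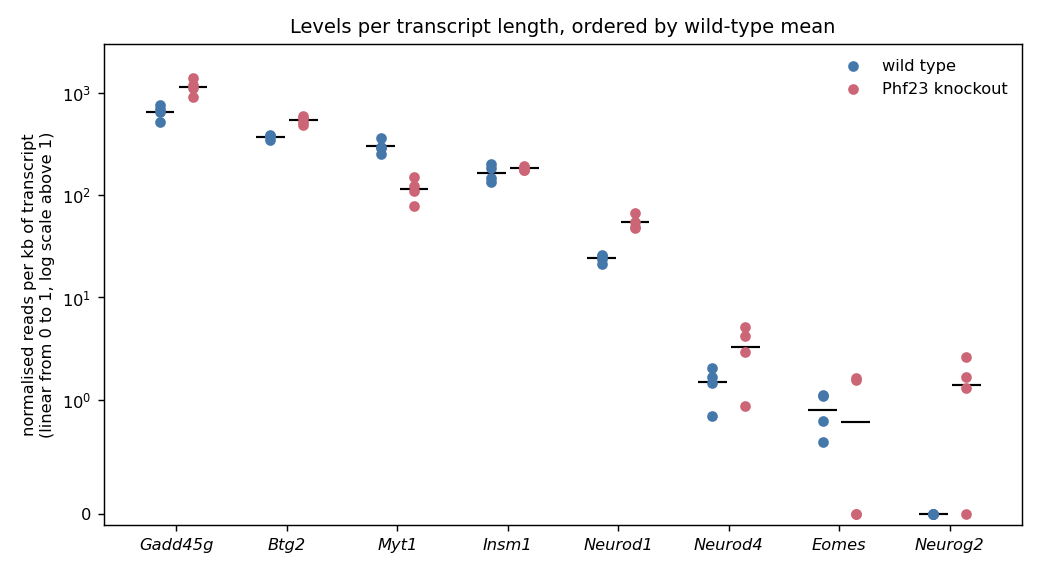
Normalised reads per kb of the longest annotated transcript for 8 genes in each library (points, 4 per genotype; bars: means; the axis is linear from 0 to 1 and logarithmic above). Gadd45g, Btg2, Myt1 and Insm1 lie above 78 per kb in every library, Neurod1 between 21.5 and 67.1, and Neurod4, Eomes and Neurog2 at or below 5.18.

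Neurog2 was at or near 0 in every library. This proneural factor, which starts the neuronal programme in dorsal forebrain progenitors, lies on chromosome 3 from 127633135 to 127635631 (plus strand, mm10) with a transcript of 2227 nt. It had 0 recovered reads in each wild-type library and 6, 0, 4 and 3 reads in the libraries labelled knockout 1 to 4. The reads were thus in 3 of the 4 libraries labelled knockout and in none of the others, and replicate 2 overlapped the wild type. Summed over each group, 13 reads against 0 is 4.11-fold higher when the wild type is set at a floor of 3 reads over the group. The floor covers the counting error of the wild-type 0 and not that of the 13 reads, so this is not a lower bound. The limma-trend call was missed (FDR = 0.0778, unadjusted p = 0.0278 in that fit). Without the library labelled knockout 2 the gene was called (log2 fold change 2.33, FDR = 0.0280), as it was by edgeR with no filter (FDR = 0.0480). That library had 0 reads of Neurog2, so leaving it out could only widen the difference. All 13 reads were in libraries labelled knockout, and no measured gene had fewer than 11 in total. Neurog2 was thus measured only through the group where it is higher, and these values are not support for a difference. A level this low cannot be told apart in bulk RNA from a few expressing cells among many that do not express the gene.

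Neurod1, a bHLH factor that acts after the neurogenins and drives neuronal differentiation, rose. It lies on chromosome 2 from 79452521 to 79456751 (minus strand, mm10), with 2 exons and a transcript of 2729 nt. Its values were 70.7, 58.6, 65.3 and 68.8 normalised reads in wild-type libraries 1 to 4, against 132, 183, 148 and 129 in libraries 1 to 4 labelled knockout. Every library labelled knockout was above every wild-type library, and replicate 2 was the highest. Neurod1 went from 65.8 ± 5.33 to 148 ± 24.9 (SD, n = 4 each), 2.25-fold, with a log2 fold change of 1.15 ± 0.164 (95% interval 0.79 to 1.50, limma-trend FDR = 0.00166). With the trend in transcript length and GC content subtracted from each library it was 1.18 ± 0.154 (FDR = 0.000201), because genes of its length and GC content moved by only -0.03 in the trend. Of its exons, 201 bases are shared with Cerkl on the same strand, and Cerkl had means of 3.16 and 3.17 normalised reads. How reads in the shared bases were assigned is not given, and their part in the Neurod1 difference was not tested. Neuron markers, measured for 7 of 8, summed to 518 to 746 normalised reads in wild type and 561 to 613 in libraries labelled knockout. Syt1 was the largest, with means of 411 and 351. Rbfox3 was called higher (limma-trend FDR = 0.01) and Gad2, whose groups overlapped, lower (FDR = 0.0441), where 14.8% of all genes were called in each direction. With the trend subtracted Rbfox3 kept its call (FDR = 0.0135) and Gad2 did not (FDR = 0.111), and the slope covariate called neither. Stmn2 had means of 1.46 and 2.12. The part of these markers in the Neurod1 difference was not tested. Another 154 exonic bases of Neurod1 lie opposite the noncoding gene Gm26755, which is not analysed here.

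Neurod4, a related bHLH factor of differentiating progenitors on chromosome 10 (130268152 to 130280240, minus strand), had few reads. It had 5, 3, 5 and 7 recovered reads in wild-type libraries 1 to 4, against 18, 3, 15 and 10 in the libraries labelled knockout 1 to 4. Of the libraries labelled knockout, 3 were above the whole wild-type range and replicate 2 was inside it. The means were 5.05 ± 1.64 and 11.1 ± 6.10 normalised reads (SD, n = 4 each) and the log2 fold change was 0.84 ± 0.493 (limma-trend FDR = 0.213). The gene was called only when the library labelled knockout 2 was left out (1.29, FDR = 0.0483). In that same library Neurog2 and Eomes had 0 reads, and its length slope of -0.31 was the steepest of the 8. The part of that slope in these values was not tested.

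Myt1 showed the largest difference among the genes with enough reads in the fit that leaves transcript length untreated. Neurod1 had the larger absolute value with the trend subtracted (1.18 against -1.17) and in replicates 3 and 4 alone (1.03 against -0.99). Under the slope covariate, Gadd45g (0.99) and Neurod1 (0.93) both exceeded Myt1 (-0.73). The product of Myt1 is a zinc finger factor that works with proneural proteins in early neurogenesis and is also expressed in oligodendrocyte progenitors. The gene lies on chromosome 2 from 181763332 to 181827797 (plus strand, mm10), with 12 annotated transcripts of which the longest has 23 exons and 5509 nt. It had 1983, 1645, 1599 and 1381 normalised reads in wild-type libraries 1 to 4, against 601, 434, 681 and 823 in libraries 1 to 4 labelled knockout. All libraries labelled knockout were below all wild-type libraries, with replicate 2 the lowest and replicate 4 the nearest to the wild type. Myt1 fell from 1652 ± 249 to 635 ± 162 (SD, n = 4 each), 2.60-fold, with a log2 fold change of -1.40 ± 0.175 (95% interval -1.78 to -1.03, limma-trend FDR = 0.000752). Only 1.22% of all genes had a lower log2 fold change.

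How far the Myt1 difference shrank depended on how transcript length was treated. At its length and GC content the trend itself was -0.24 on the log2 scale, and with the trend subtracted Myt1 was at -1.17 ± 0.117 (FDR = 3.26e-05). With each library's slope on length entered as a covariate it was at -0.73 ± 0.142 (FDR = 0.0177), where 0.438% of all genes were called lower. In replicates 3 and 4 alone, the libraries with the flattest slopes, it was at -0.99 (FDR = 2.53e-14, with 2 libraries a group). The error in that fit was taken from the trend over all genes, so its FDR does not measure the spread between those libraries. The oligodendrocyte lineage markers summed to 17549 to 22581 normalised reads in the wild type and 20317 to 21110 in the libraries labelled knockout, with 4 higher and 1 lower of 8, and their part in the Myt1 difference was not tested. Its paralog Myt1l, a factor of young neurons, fell too, from 90.7 ± 12.4 to 39.7 ± 5.86 normalised reads (SD, n = 4 each, log2 fold change -1.17, limma-trend FDR = 0.00312), and was at -0.78 with the trend subtracted (FDR = 0.00925). A further paralog, St18, had means under 4 normalised reads and was not called.

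Insm1, a zinc finger repressor that promotes the delamination of basal progenitors, did not pass the test. The gene is a single exon of 3100 nt on chromosome 2 (146221921 to 146225020, plus strand). It had 453, 414, 568 and 621 normalised reads in wild-type libraries 1 to 4, against 550, 552, 599 and 575 in libraries 1 to 4 labelled knockout. Wild type 4 was the highest library of all, so the genotypes overlapped. Wild type 1 and 2, the lowest for Insm1, were also the libraries with the steepest positive length slopes. The group means of 514 ± 96.8 and 569 ± 23.2 (SD, n = 4 each) gave 0.16 ± 0.134 as log2 fold change (95% interval -0.13 to 0.45, limma-trend FDR = 0.375). Its sign was negative with the trend subtracted (-0.12) and in replicates 3 and 4 alone (-0.02), and neither fit called it.

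Eomes, the marker of the intermediate progenitor stage, was close to absent in every library. The gene lies on chromosome 9 from 118478212 to 118486132 (plus strand, mm10). Recovered reads were 4, 4, 2 and 3 in wild-type libraries 1 to 4, against 0, 0, 6 and 6 in the libraries labelled knockout 1 to 4, in all 13 against 12. Replicates 3 and 4 of the group labelled knockout were above the wild type and replicates 1 and 2 below it. The log2 fold change of -0.69 ± 0.721 was far from the threshold (95% interval -2.25 to 0.87, limma-trend FDR = 0.502). Its sign was positive with the slope covariate and in replicates 3 and 4 alone, with no call in either. Of its exonic bases, 118 lie opposite the antisense gene Gm33460, which is not analysed here.

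The growth arrest genes both rose. Btg2, an antiproliferative gene switched on in progenitors that are about to make neurons and also a p53 target, lies on chromosome 1 from 134075170 to 134079120 (minus strand, mm10). It had 1032, 947, 1046 and 1052 normalised reads in wild-type libraries 1 to 4, against 1612, 1553, 1431 and 1339 in libraries 1 to 4 labelled knockout. The groups were well apart, and the wild type varied little, with a coefficient of variation of 4.83%. The 1.46-fold difference had a log2 fold change of 0.54 ± 0.0974 (limma-trend FDR = 0.00485). Subtracting the trend gave 0.46 ± 0.0722 (FDR = 0.000808). Under the slope covariate it was at 0.35 and lost the call (FDR = 0.236).

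Gadd45g, a stress and growth arrest gene that is also induced by proneural factors in neuronal precursors, lies on chromosome 13 from 51846678 to 51848468 (plus strand, mm10). It had 819, 689, 550 and 744 normalised reads in wild-type libraries 1 to 4, against 1507, 970, 1264 and 1181 in libraries 1 to 4 labelled knockout. The lowest library labelled knockout, replicate 2, was still above the highest wild-type library. Gadd45g rose from 701 ± 113 to 1230.2 ± 222 (SD, n = 4 each), 1.76-fold, with a log2 fold change of 0.81 ± 0.151 (limma-trend FDR = 0.00532). Its transcript is the shortest of the 8, at 1071 nt, and the trend at its length and GC content was 0.65. Once that trend was subtracted, 0.16 ± 0.278 was left and the call ended (FDR = 0.739). The slope covariate gave 0.99 ± 0.226 instead (FDR = 0.0682). Replicates 3 and 4 alone gave 0.93 (FDR = 6.14e-12), with the error taken from the trend over all genes and not from the spread between those libraries. Wild type 1, with the steepest positive slope, had the highest Gadd45g value of the wild type, and the library labelled knockout 2, with the steepest negative slope, had the lowest of its group. The part of the slopes in these Gadd45g values was not tested. Among its paralogs, Gadd45a, at 0.17, was not called, and Gadd45b was called at 0.64 (limma-trend FDR = 0.0451) although its genotypes overlapped. The Gadd45b call ended with the trend subtracted (0.13, FDR = 0.651), in replicates 3 and 4 alone (0.22, FDR = 0.604) and in edgeR with no filter (0.59, FDR = 0.0549).

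**Figure D2:**
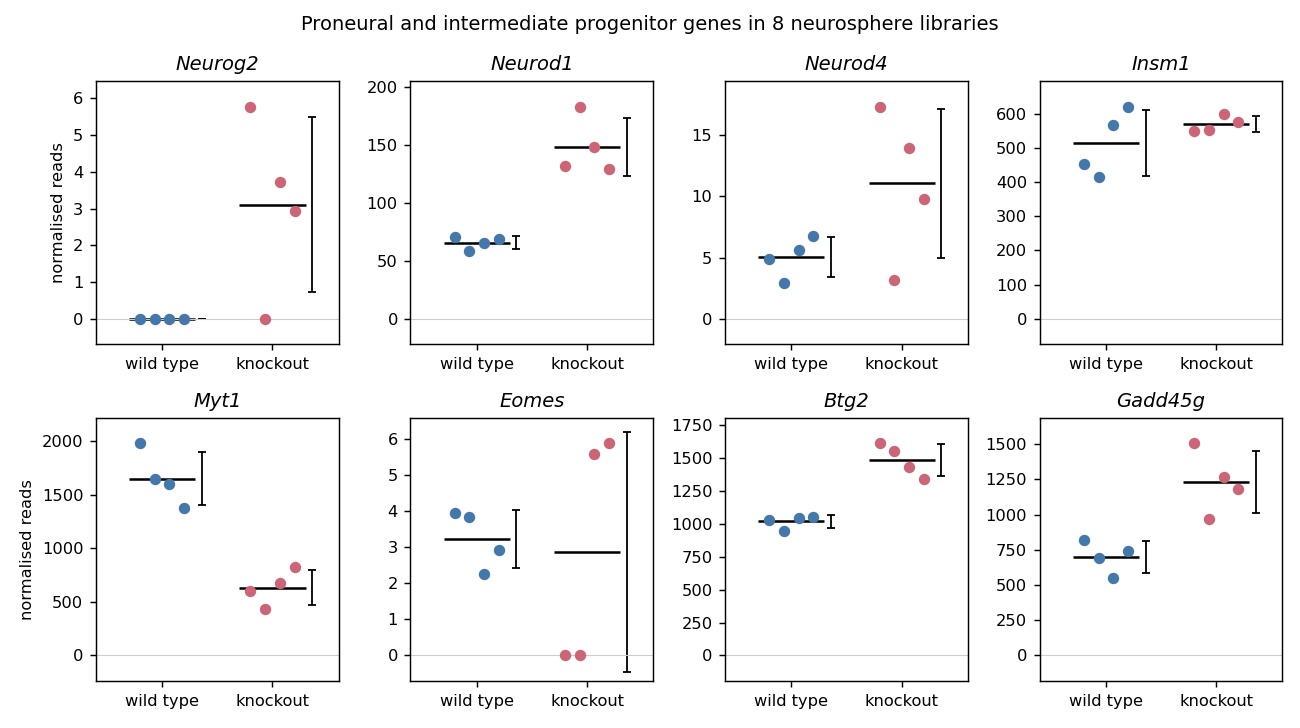
Normalised reads of 8 genes in each library (points, replicates 1 to 4 from left to right; horizontal bars: means; error bars: SD, n = 4 per genotype; each panel has its own axis). The genotypes do not overlap for Neurod1, Myt1, Btg2 and Gadd45g, and the library labelled knockout 2 has 0 reads of Neurog2 and Eomes.

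Counted over the 4 ways of treating transcript length, the 8 genes gave different numbers of calls. With the trend subtracted, 2 were higher and 1 lower, against 10.6% and 7.87% of all genes (18.4% in either direction). With the slope covariate, limma-trend called 0 higher, with 3 at an unadjusted p under 0.05, and 1 lower, against 0.656% and 0.438% (1.09% in either direction). Replicates 3 and 4 alone gave 3 higher and 1 lower, against 4.61% and 4.54% (9.15% in either direction). Calls in that fit rest on an error taken from the trend over all genes, not on the spread between those libraries. Myt1 was called lower in all 4 fits, and Neurod1 and Btg2 were called higher in 3 of the 4, the exception being the covariate. Neurod1 had an interval of 0.38 to 1.49 under the covariate, and its FDR there was 0.117.

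**Figure D3:**
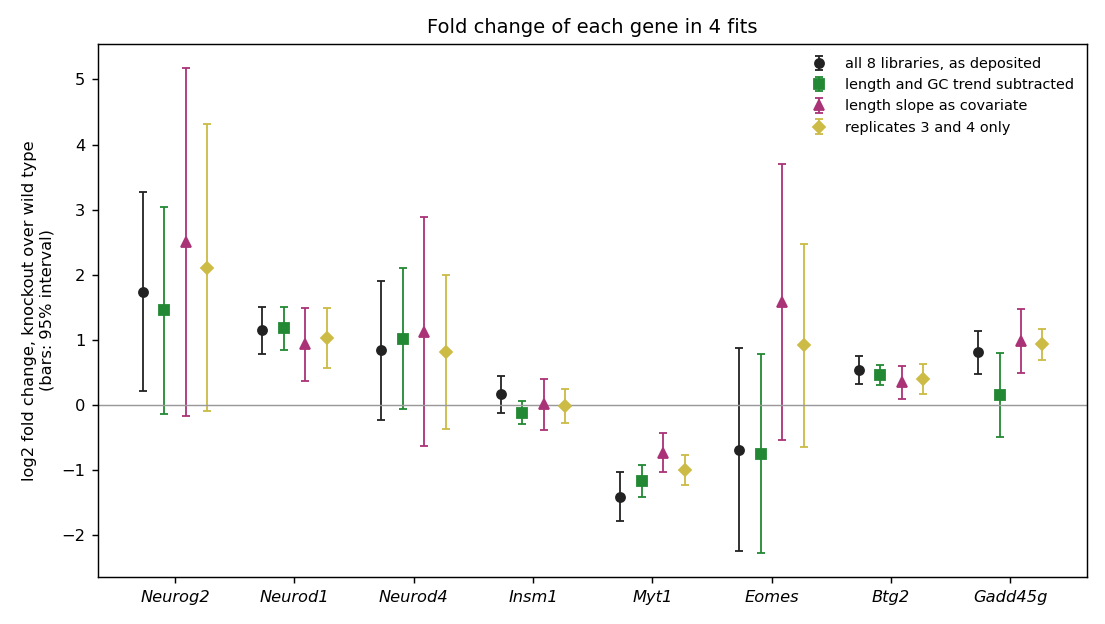
Log2 fold change (knockout over wild type, on the log2(value + 1) scale) of 8 genes in 4 limma-trend fits; bars are 95% intervals. Myt1 lies below 0 in each fit, Gadd45g drops to 0.16 with the length and GC trend subtracted, and the intervals of Neurog2, Neurod4 and Eomes are wide.

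**Figure D4:**
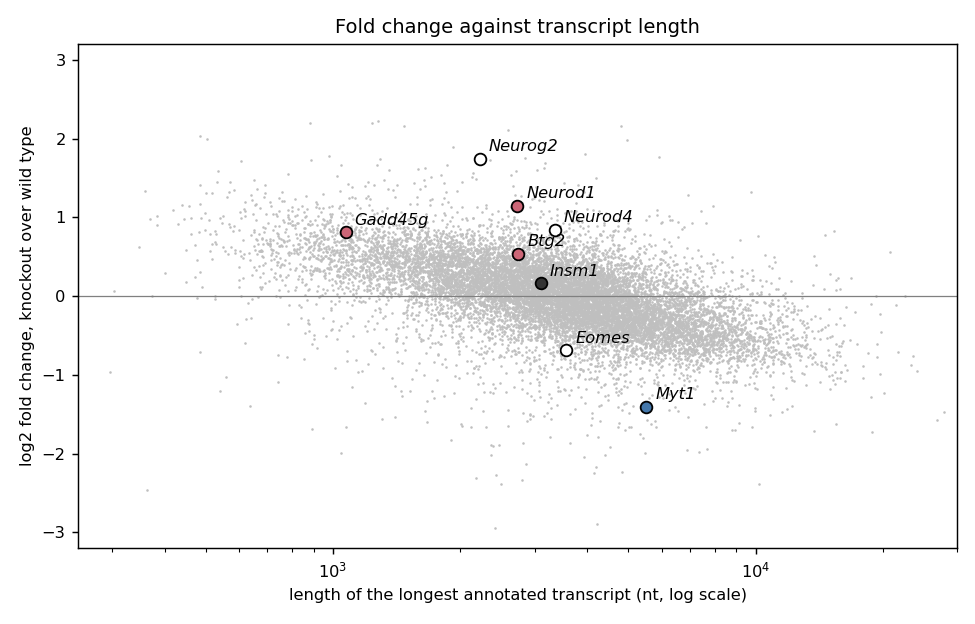
Log2 fold change of every gene whose mean reached 10 normalised reads (grey points) against the length of its longest annotated transcript, with 8 genes marked: red called higher, blue called lower, black not called, white under 20 normalised reads. Gadd45g, at 1071 nt and 0.81, lies among other short transcripts that are mostly above 0, and Neurod1 (2729 nt, 1.15) lies above and Myt1 (5509 nt, -1.40) below most genes of their length.

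Genes around the proneural cascade were mixed. Of 54 measured genes in 7 lists, 11 were higher and 8 lower, with a median log2 fold change of 0.08 (all genes: 0.00055, with 14.8% called in each direction). Among other proneural and neuronal bHLH factors, 0 of 4 measured were called by limma-trend, with 0 at an unadjusted p under 0.05, and 0 by edgeR with no filter. These were Nhlh1, Neurod6, Atoh7 and Bhlhe22, and the one with the lowest FDR, Bhlhe22, had means of 5.68 ± 3.56 and 10.2 ± 5.38 normalised reads (SD, n = 4 each, limma-trend FDR = 0.242). The E proteins, the partners of the proneural factors, were called in all 3 cases. Tcf3 went from 2808 ± 503 to 3699 ± 122 normalised reads, while Tcf4 and Tcf12 were lower (log2 fold change 0.41, -0.82 and -0.60, limma-trend FDR = 0.0241, 0.00369 and 0.00842). With the trend subtracted, Tcf4 was at -0.31 (FDR = 0.00531) and Tcf12 at -0.23 (FDR = 0.0351), both still called, and Tcf3 was at 0.14 and not called (FDR = 0.144). The slope covariate called none of the 3 (FDR = 0.270 for Tcf4, 0.687 for Tcf12 and 0.814 for Tcf3).

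Of the Delta ligands and Notch modulators, 2 rose and 1 fell among 8 measured, where 14.8% of all genes were called in each direction. Those that rose were Hes6, which relieves Hes repression in committed progenitors, and Mfng, a Fringe glycosyltransferase. Hes6 had 652, 713, 1031 and 1162 normalised reads in wild-type libraries 1 to 4, against 2373, 1836, 1577 and 1353 in libraries 1 to 4 labelled knockout (log2 fold change 1.01, limma-trend FDR = 0.00642). Mfng went from 61.7 ± 12.9 to 102 ± 10.5 (SD, n = 4 each, limma-trend FDR = 0.0152), and neither gene overlapped between genotypes. With the trend subtracted Hes6 was at 0.45 and still called (FDR = 0.00465), whereas Mfng was at 0.34 and was not (FDR = 0.157), nor was Mfng in replicates 3 and 4 alone (FDR = 0.235). Mib1, a ubiquitin ligase that activates Delta, was called at -0.31 (FDR = 0.0478), but its sign was positive with the trend subtracted (0.20). The ligands Dll1, Dll3, Dll4 and Jag2 were not called, at -0.31, 0.32, -0.33 and -0.51.

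Repressors of the cascade had 6 higher and 0 lower of 10 measured by limma-trend (0 lower also at an unadjusted p under 0.05, and 6 and 0 by edgeR with no filter), with a median log2 fold change of 0.48, where 14.8% of all genes were called higher. They were Hes1, Hes5, Hey1, Id1, Id3 and Id4, and the Id proteins among them tie up E proteins. Id4 had 87.4, 87.4, 100.1 and 87.2 normalised reads in wild-type libraries 1 to 4, against 156, 174, 184 and 162 in libraries 1 to 4 labelled knockout. Its log2 fold change was 0.89 (limma-trend FDR = 0.00249) and 1.06 with the trend subtracted (FDR = 0.000186). Hes5, the Notch target with the lowest FDR of the list, had 558, 394, 441 and 493 normalised reads in wild-type libraries 1 to 4, against 1201, 1199, 2016 and 1677 in libraries 1 to 4 labelled knockout. It went from 472 ± 70.8 to 1523 ± 398 normalised reads (SD, n = 4 each, log2 fold change 1.67, limma-trend FDR = 0.000332), with no overlap. Hes5 was at 1.01 and not called with the trend subtracted (FDR = 0.0839), and at 2.12 with the slope covariate (FDR = 0.000434), which called no other of the 10. Id1 went from 337 ± 111 to 716 ± 145 normalised reads (SD, n = 4 each, limma-trend FDR = 0.00619) and had a log2 fold change of 0.63 with the trend subtracted (FDR = 0.00671), and Id1 and Id4 were the 2 of the 10 called in that fit. Hes1 (0.61, FDR = 0.0635), Hey1 (0.23, FDR = 0.0585) and Id3 (0.06, FDR = 0.655) lost their calls there. Astrocyte markers, some of which radial glia share, moved alongside: of 5, Gfap, S100b and Aldoc were higher and Aqp4 and Aldh1l1 lower, each without overlap, and their sum was 4163 to 5193 normalised reads in the wild type and 4094 to 5444 in the libraries labelled knockout. Their part in the repressor values was not tested. Rest, the repressor of neuronal genes, was not called, at -0.25.

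Markers of intermediate and basal progenitors other than Eomes had 1 higher and 2 lower of 9 measured. For this list and the next, the share of all genes called was 14.8% in each direction. Rnd2, a small GTPase downstream of Neurog2, went from 712 ± 86.7 to 1099 ± 283, Elavl4, a neuronal RNA-binding protein, from 1166 ± 161 to 803 ± 52.5, and Chd7, a chromatin remodeller, from 2575 ± 145 to 1557 ± 615 (SD, n = 4 each). Their limma-trend FDR was 0.0206, 0.00895 and 0.0220. With the trend subtracted, Elavl4 kept a call (-0.28, FDR = 0.0239), and Rnd2 (0.15, FDR = 0.313) and Chd7 (-0.42, FDR = 0.128) did not. Sstr2, Mfap4 and Ppp1r17 had means under 13 normalised reads in either genotype and were not called. Of 12 later neuronal differentiation factors, Bcl11b and Prox1 were lower (log2 fold change -0.96 and -0.60, limma-trend FDR = 0.00931 and 0.0142) and 0 were higher, also at an unadjusted p under 0.05 and by edgeR with no filter. With the trend subtracted, 2 of the 12 were called higher and 1 lower, against 10.6% and 7.87% of all genes. Those higher were Dcx (0.61, FDR = 0.02) and Sox11 (0.45, FDR = 0.0086). Bcl11b was lower at -0.56 (FDR = 0.0419), and Prox1, at -0.15, was not called (FDR = 0.201). Tbr1, which follows Eomes in cortical neurons, had means of 6.12 and 3.39 normalised reads and was not called.

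**Figure D5:**
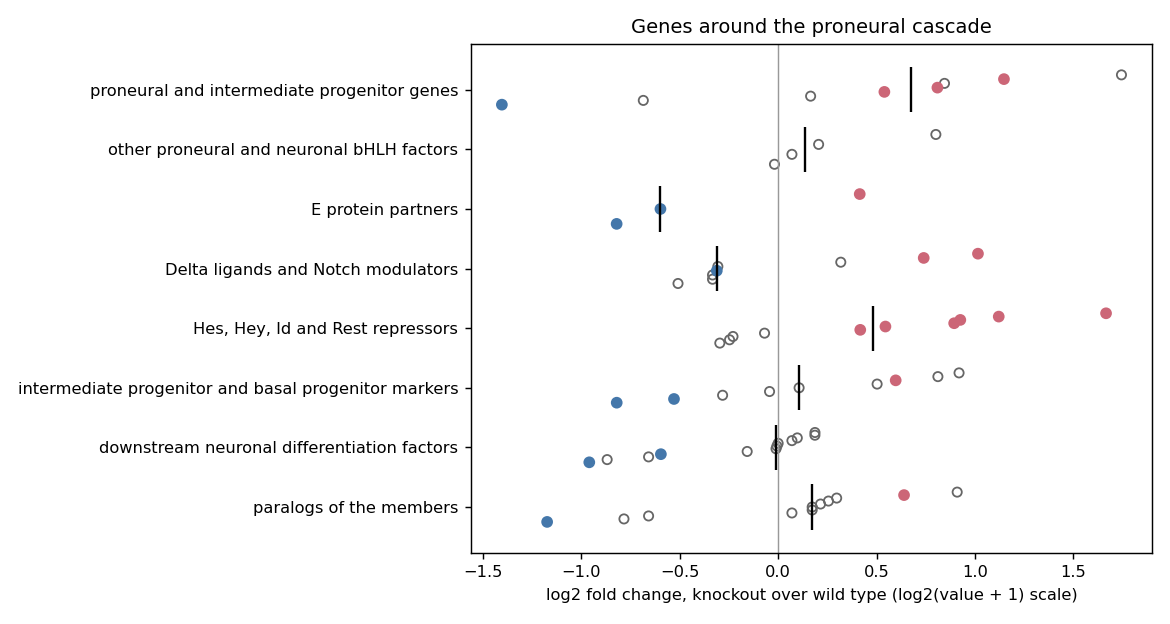
Log2 fold change (knockout over wild type, log2(value + 1) scale) of each measured gene in 8 groups; filled points were called (red higher, blue lower), open points were not, and vertical bars are medians. The repressors hold 6 filled points to the right of 0, and the 2 blue points of the E proteins are Tcf4 and Tcf12.

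Profiles over the 8 libraries were compared as a description, by the root mean square difference of log2(value + 1) centred on each gene's mean, among 12039 named protein-coding genes whose mean reached 20 normalised reads. Nearest to Neurod1 were Sox10 (0.128), a factor of the oligodendrocyte lineage, and Cbs (0.145), an enzyme of sulphur amino acid metabolism. The closest profiles to Myt1 were those of Fat3 (0.108), a giant cadherin, and Nhs (0.132), both with transcripts longer than that of Myt1. Btg2 lay nearest to Creb3 (0.0369) and Bdh1 (0.0425), Insm1 to Trim8 (0.0416) and Srebf1 (0.0468), and Gadd45g to Gpr3 (0.164) and Bcl2l12 (0.167). Neurog2, Neurod4 and Eomes had too few reads for this comparison. Between the other listed genes, differences ran from 0.252 (Btg2 and Insm1) to 1.33 (Neurod1 and Myt1). The neighbours named above were picked as the closest among 12039 genes, so their smaller differences follow from that choice. They cannot show whether the listed genes behave alike.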

How the data were processed

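RNA of 8 neurosphere libraries was measured as gene totals. The deposited signal values are reads per gene scaled by a size factor for each library: all values were whole multiples of 1 step (100% at a tolerance of 1e-04 reads), which gave recovered reads. The submitters' processing notes name mm10 and the tools DESeq2 1.38.3, STAR 2.7.1a, fastp 0.23.4 and FastQC 0.12.1. Which counter, annotation and strand setting were used is not given in the sources used here. Of 15602 rows, 64 repeated another row and were dropped. The lowest gene total was 11 reads. Names, lengths, GC content and coordinates come from GENCODE M21 and promoters from RefSeq (GRCm38.p6).

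R 4.3.3 and limma 3.58.1 were used to fit limma-trend, with robust empirical Bayes, on log2(value + 1) over 15538 genes, two-sided, with Benjamini-Hochberg adjustment. Other settings were edgeR 4.0.16, DESeq2 1.42.0 and limma-voom on recovered reads, other scalings, filters and a pseudocount of 0.1, a replicate block, a loess trend (span 0.3) with length and GC content subtracted, the length slope (13265 genes with a mean of at least 10) as a covariate, replicates 3 and 4 alone, and leaving out each library. Scripts were tested on simulated data whose length slopes were balanced between genotypes. In the measured libraries the slopes differed by genotype, a case that the simulation does not cover. The genes and lists were chosen with earlier results of these data known. Named were the 8 genes, up to 4 called members of each list by lowest FDR (the lowest where none was called) and the 2 nearest profiles. Other genes are named to complete a list, and 1 listed gene is not reported here and was left out of the list counts.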

Additional observations from a re-analysis of the deposited data

Results flagged for a closer look

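Of 53 groups of 4 libraries checked for a value far from the others, 2 held one, and chance gives about 1 in 20. Id4 in wild type 3 stood at 100.1 normalised reads, against 87.2 to 87.4 in the other wild-type libraries, a gap that made up 0.988 of the range. Bcl11b in wild type 3 stood at 101 normalised reads, against 165 to 170 (169.9) in the other wild-type libraries, a gap of 0.924 of the range. None of the 8 proneural and intermediate progenitor genes held such a value.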

How the results depend on the processing

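Myt1 was called lower in each of the alternatives run, with a log2 fold change of -1.54 to -1.23 when 1 library was left out. Neurod1 was called in all but the slope covariate. The slope covariate left 0 of the 8 genes higher, and a log2 fold change of at least 1 left 1 higher. Leaving out 1 library gave 3 to 5 higher, 5 being without the library labelled knockout 2, and 1 lower throughout. The sign turned for Insm1 with the trend subtracted (-0.12, with and without the replicate block) and in replicates 3 and 4 alone (-0.017) and for Eomes with the covariate (1.59) and in replicates 3 and 4 (0.92). It also turned for Mib1 with the trend subtracted (0.20, with and without the block) and for Rnd2 (-0.081) and Chd7 (0.018) with the covariate. Of the list genes, 11 higher and 8 lower became 6 and 5 with the trend subtracted, 1 and 0 with the covariate, 3 and 1 where the log2 value had to reach 1, and 6 higher in replicates 3 and 4. Without 1 library they were 6 to 12 higher and 5 to 11 lower. The 4593 calls over all genes became 2862, 170, 556 and 1422 in these fits, and 1884 to 5861 without 1 library (1884 without the library labelled knockout 1, 2106 without wild type 2 and 2189 without wild type 1). Leaving out wild type 1, wild type 2 or the library labelled knockout 1 each ended the calls of Tcf3, Rnd2, Chd7, Mib1 and Gadd45b. Mib1 and Gadd45b also lost theirs without the library labelled knockout 2 or 3, Mib1 without wild type 3, and Prox1 without the library labelled knockout 1. The cause was not tested.

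Same-numbered libraries did not deviate in the same direction (Pearson r across genes, which are not replicates, -0.33 to -0.13). This cannot tell whether the numbers mark libraries handled together. Length slopes were steepest in replicates 1 and 2 of both genotypes, at 0.26 and 0.20 in the wild type and -0.24 and -0.31 in those labelled knockout. With a replicate block, 2 of the 8 genes were higher and 1 lower, Btg2 missing the threshold (FDR = 0.0538), the list genes gave 2 higher and 1 lower, and all genes gave 333 calls. The block with the trend subtracted gave 4 and 2 list genes and 1470 calls. EdgeR, limma-voom and a minimum mean of 10 left out Neurog2, Neurod4 and Eomes, except edgeR with no filter, and DESeq2 gave no adjusted p for Neurog2 and Eomes, so those genes have no value there. Their depth of 0 to 18 reads per library limits what could be detected.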
